A study of Hermetia illucens with 24 samples.

Results

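ND1, ND2, ND3, ND4, ND4L, ND5 and ND6 are the subunits of respiratory complex I that insects encode in mitochondrial DNA. They were taken by symbol from a table of gene counts of whole black soldier fly (*Hermetia illucens*) larvae, in which they make up 7 of 15187 named genes. ND1, ND3, ND4, ND4L, ND5 and ND6 had counts and were tested, whereas ND2 had none in any library. Larvae aged 5 days were moved to chickenfeed spiked with aflatoxin B1 (AFB1), a toxin of moulds, or to the same kind of feed without it, and were taken after 6, 24 and 72 h. Each of the 6 groups, AFB1 6 h, 24 h and 72 h and control 6 h, 24 h and 72 h, holds 4 libraries, and each library was made from 2 pooled larvae. All larvae were reared at 27 °C and 65% humidity with 16 h of light and 8 h of dark, and the labels give no dose of AFB1 and no strain. Whether the pools of a group came from separate containers is not stated, so p-values measure the spread between these pools.

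Complex I oxidises NADH, passes the electrons to ubiquinone and pumps protons across the inner mitochondrial membrane, and it is the entry point of the respiratory chain. The ND proteins form the core of its membrane arm, while the arm that binds NADH is made of subunits encoded in the nucleus. In the bacterial and mammalian enzymes ND1, ND3, ND4L and ND6 lie near the ubiquinone site and the joint of the arms, and ND2, ND4 and ND5 are the antiporter-like subunits, with ND4 and ND5 at the far end of the membrane arm. In most insects ND1, ND4, ND4L and ND5 are read from the strand opposite to ND2, ND3 and ND6, and mitochondrial RNA is made as long precursors that are cut into single transcripts. In the gene order of the reference table, ND5, ND4 and ND4L follow one another, ND6 comes next, and CYTB, the cytochrome b gene of complex III, separates ND6 from ND1.

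Library totals ran from 6826454 to 27136702 counts. A single gene, LOC119646963, took between 7.12% and 81.1% of them and so moves every value scaled to the total. For this reason levels are given as CPM (read counts scaled to the library) in 2 ways, with the counts of all other genes as the total (CPM outside LOC119646963) and with the counts of all genes as the total (CPM of all named counts). LOC119646963 took 27.4%, 42.8%, 74.2% and 81.1% in AFB1 24 h replicates 1 to 4, against 7.12%, 7.43%, 7.92% and 36.8% in control 24 h replicates 1 to 4. Over all genes, 8 of the 24 libraries were nearer to another group than to their own. Among AFB1 libraries these were replicates 2 and 3 of 6 h, replicate 1 of 24 h and replicate 2 of 72 h, and among controls replicates 2 and 3 of 6 h and replicates 1 and 4 of 24 h. Pairs of control 72 h libraries differed by a chi-square per gene of only 1.80 to 23.5, against 54.9 to 753 for pairs within the other groups. The closest were replicates 1 and 4 (1.80, with 11.6% of genes at p under 0.05) and replicates 2 and 3 (7.94, with 19.7%), which is more than sampling noise alone, so they were kept as 4. They may still be repeats of fewer samples, in which case n = 4 for control 72 h and the residual degrees of freedom of the fit are too high, and results with them summed to 2 or to 1 are given where they differ. Nuclear genes carry LOC numbers without product names here, so no tissue marker was checked. In RNA of whole larvae, a change in the number of mitochondria or cells and a change of RNA in each of them cannot be told apart.

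ND2 stood apart from the other members. It had 0 counts over all 24 libraries, and a count of 3, taken as the limit that a count of 0 allows, corresponds to 0.123 to 1.75 CPM outside LOC119646963. Its neighbour COX1, the next gene in the order and a subunit of complex IV, had between 5007 and 39561 counts per library. Whether ND2 RNA was missing from the larvae or reads of ND2 were not assigned to it cannot be told apart from the counts. ND6 was the next lowest, with 5 to 112 counts per library, so its values carry a large counting error. The other 5 members each had at least 6730 counts in every library. Levels are not ordered between genes, because gene lengths of the build that the counts rest on were not used here.

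**Figure D1:**
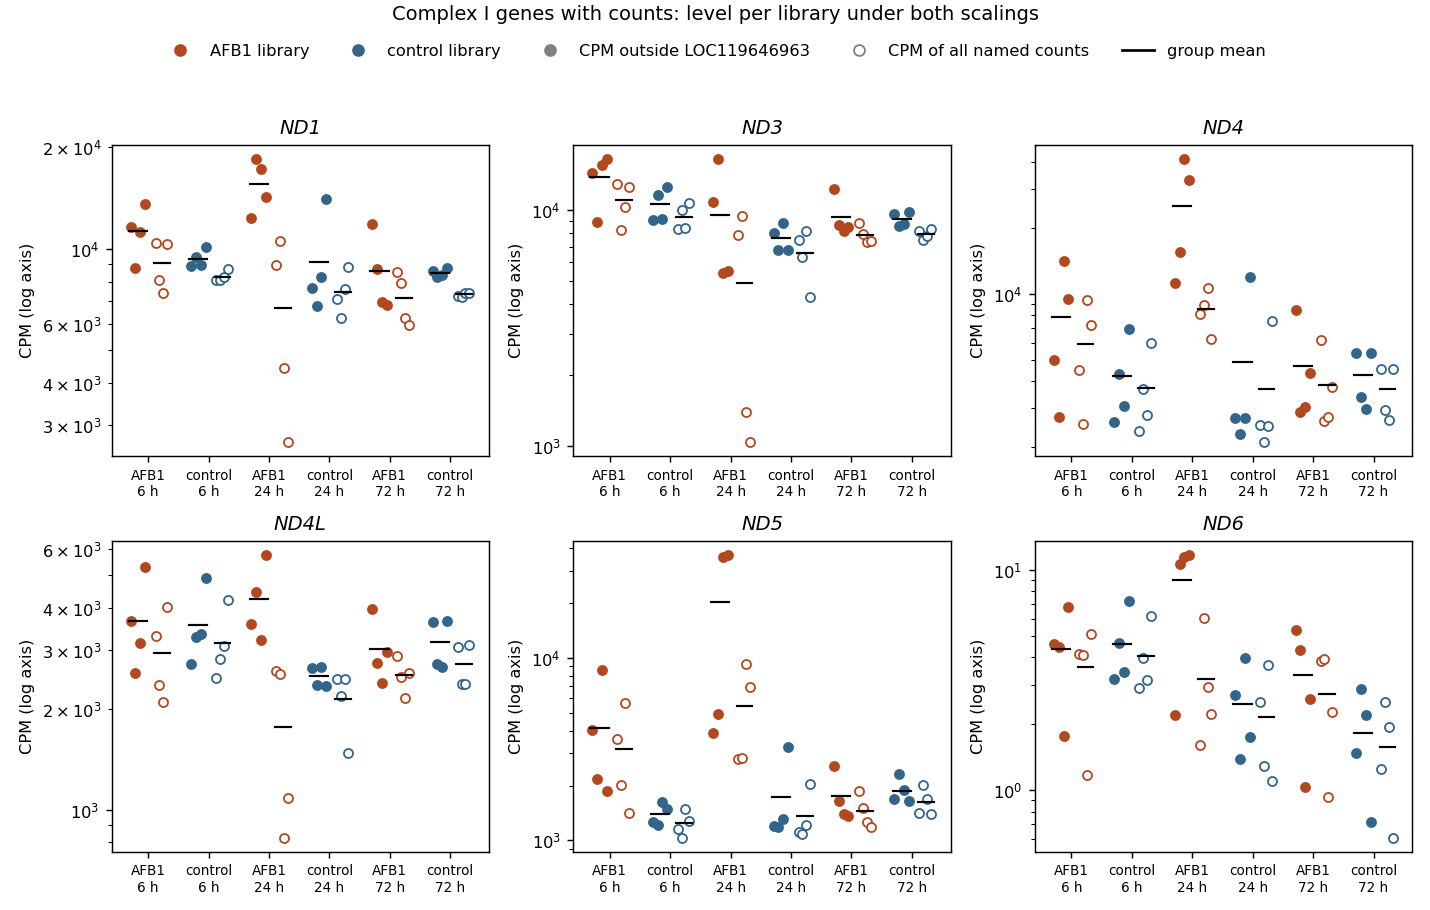
Levels of the 6 complex I genes with counts in each library, in CPM on a log axis, with AFB1 left of control at 6, 24 and 72 h; filled points are CPM outside LOC119646963, open points CPM of all named counts, and bars group means. Among the filled points of 24 h the 4 AFB1 libraries lie above all 4 controls for ND4L and ND5, while among the open points this holds for ND5 but not for ND4L.

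After 6 h none of the 6 tested genes was called in edgeR (quasi-likelihood test, adjusted p under 0.05, with libraries scaled by TMM), where 14.3% of all 10165 genes tested were. ND5 had an unadjusted p under 0.05, limma voom called none, and DESeq2 called ND5 (adjusted p = 0.02). ND5 had 4015, 2171, 8543 and 1867 CPM outside LOC119646963 in AFB1 6 h replicates 1 to 4, against 1269, 1210, 1625 and 1491 CPM in control 6 h replicates 1 to 4. All AFB1 libraries were above all controls on this scale, as was the case for 4.19% of all genes. In CPM of all named counts the groups overlapped, with 1420 CPM in AFB1 replicate 4 and 1489 CPM in control replicate 3. The log2 fold change of ND5 was 2.10 (SE 0.73, edgeR adjusted p = 0.057). Without AFB1 6 h replicate 2 or 4, AFB1 24 h replicate 1 or 2 or control 24 h replicate 4, each left out alone, ND5 was called, and the number of called members was then 1 in place of 0. Without AFB1 6 h replicate 3 its log2 fold change was 1.14 (adjusted p = 0.348).

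For the other members the diets overlapped at 6 h. ND4 had 4985, 2750, 14167 and 9528 CPM outside LOC119646963 in AFB1 libraries, against 2608, 4306, 3070 and 6920 CPM in controls. AFB1 replicate 3, in which LOC119646963 took 33.7% of the counts, was the highest library for ND4 and ND5, and AFB1 replicate 2 lay among the controls for ND4. The log2 fold changes were 1.34 for ND4 (SE 0.71, edgeR adjusted p = 0.205), 0.72 for ND3 (SE 0.35, adjusted p = 0.163) and 0.59 for ND1 (SE 0.35, adjusted p = 0.257). Without AFB1 replicate 3, that of ND4 was 0.54 (adjusted p = 0.706). ND4L and ND6 were at 0.33 (SE 0.31) and 0.15 (SE 0.51), and both were below 0 with all named counts, as was ND6 with totals outside LOC119646963. The median of the 6 genes was 0.66, against -0.0066 over all genes tested. With standard errors of up to 0.73 on the log2 scale, a missed threshold does not show that the diets were alike.

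After 24 h 5 of the 6 tested genes rose on AFB1 feed in edgeR with TMM scaling, namely ND1, ND4, ND4L, ND5 and ND6, of which ND1 and ND4L lay below 0 when libraries were scaled to all named counts. Of all genes tested, 31.3% were called at this time and 12.2% were called higher. The median log2 fold change of the 6 genes was 1.66, against -0.16 over all genes tested. With all named counts the log2 fold changes of ND1, ND3 and ND4L were -0.16, -0.41 and -0.28, while ND4 and ND5 were still called higher. On that scaling the median over all genes moved by -1.65, so ND1, ND3 and ND4L lay above it, and 5182 of 10165 genes were called in either direction. LOC119646963 was itself high in the same libraries, and its part in these differences was not tested.

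ND5 rose most. Outside LOC119646963 it had 3859, 4931, 35919 and 36830 CPM in AFB1 24 h replicates 1 to 4, against 1199, 1178, 1313 and 3239 CPM in control 24 h replicates 1 to 4. Every AFB1 library was above every control, and AFB1 replicates 3 and 4 were far above the other pair. The same held for CPM of all named counts, with 2801, 2823, 9252 and 6955 CPM in AFB1 libraries, against 1114, 1090, 1209 and 2046 CPM in controls. Over all genes, all 4 AFB1 libraries were above all 4 controls for 5.21% of genes on the scale outside LOC119646963 and for 0.807% on the scale of all named counts. ND5 was higher by 3.88 on the log2 scale (SE 0.79, edgeR adjusted p = 0.00513). It kept its call without any 1 of the 24 libraries, with log2 fold changes between 3.30 and 4.62.

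ND4, the gene next to ND5, showed the second largest difference. It had 11207, 15609, 41389 and 33126 CPM outside LOC119646963 in AFB1 24 h libraries, against 2718, 2284.5, 2704.5 and 11915 CPM in controls. Control replicate 4 lay above AFB1 replicate 1, so the groups overlapped through that 1 library. ND4 was higher by 2.60 on the log2 scale (SE 0.74, edgeR adjusted p = 0.0147), and by 3.85 without control replicate 4. It was not called without AFB1 replicate 3 (2.10, adjusted p = 0.0576) or without control replicate 3 (adjusted p = 0.0521).

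ND4L, a short hydrophobic subunit encoded beside ND4, had 3575, 4449, 3208 and 5759 CPM outside LOC119646963 in AFB1 24 h libraries and 2651, 2361, 2659 and 2334 CPM in controls. The groups did not overlap on this scale, but by all named counts ND4L had 2595, 2547, 826 and 1088 CPM in AFB1 libraries, against 2462, 2186, 2449 and 1475 CPM in controls. On that scale AFB1 replicates 3 and 4 were the lowest of all 8 libraries. ND4L was higher by 1.09 on the log2 scale with TMM (SE 0.32, edgeR adjusted p = 0.0162) and lower by the measure given above with all named counts. Insect ND4 and ND4L usually share a few bases, and how the counting treated reads across both genes is not given.

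ND1, which helps to form the ubiquinone channel, had 12348, 18465, 17257 and 14207 CPM outside LOC119646963 in AFB1 24 h libraries and 7630, 6751, 8229 and 14012 CPM in controls. Here too control replicate 4 was the library that overlapped the AFB1 range. ND1 was higher by 1.04 on the log2 scale with TMM (SE 0.35, edgeR adjusted p = 0.0309), although not with all named counts. Its call was lost without AFB1 replicate 2 or 3 or without control replicate 1, 2 or 3, with log2 fold changes of 0.86 to 1.02 that stayed near the full value (adjusted p = 0.0523 to 0.1). The call was also lost with the control 72 h libraries summed to 1, at a log2 fold change of 1.06.

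ND3, whose loop joins the arms of the enzyme, was the tested member that did not pass. It had 10773, 16437, 5430 and 5538 CPM outside LOC119646963 in AFB1 24 h libraries, against 8017, 6795.5, 8840.5 and 6790 CPM in controls. AFB1 replicates 1 and 2 were above all controls, and replicates 3 and 4, the libraries of highest ND5, were below all of them. Its log2 fold change was 0.61 (SE 0.35, edgeR adjusted p = 0.18), and -0.41 with all named counts. ND6, read from so few counts, had 15, 65, 24 and 20 counts in AFB1 24 h libraries and 41, 20, 59 and 10 counts in controls. Relative to the other genes this was 2.20, 10.6, 11.4 and 11.7 CPM outside LOC119646963 in AFB1 libraries, against 2.69, 1.39, 3.99 and 1.75 CPM in controls. AFB1 replicate 1 was within the range of the controls and the other 3 AFB1 libraries were above it. ND6 was higher by 2.23 on the log2 scale (SE 0.55, edgeR adjusted p = 0.0079), but with all named counts it did not pass (0.57, adjusted p = 0.392).

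The calls at 24 h leaned on AFB1 replicates 3 and 4. Without both of them, edgeR called none of the 6 genes (5 were under 0.05 before adjustment) and 1 of all 10449 genes then tested, and ND5 stood at 1.41 (adjusted p = 0.16). With control replicate 4 left out as well, ND1 (1.34), ND3 (1.10), ND4 (2.70) and ND5 (2.15) were called, and so were 3224 of 10500 genes. Fitting only the 8 libraries of 24 h left ND5 and ND6 called. The log2 fold changes of ND1 (1.00), ND4 (2.57) and ND4L (1.05) were then close to those of the full fit. The share of all genes called in that fit is not given here, so the lost calls are not read as particular to the members.

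**Figure D2:**
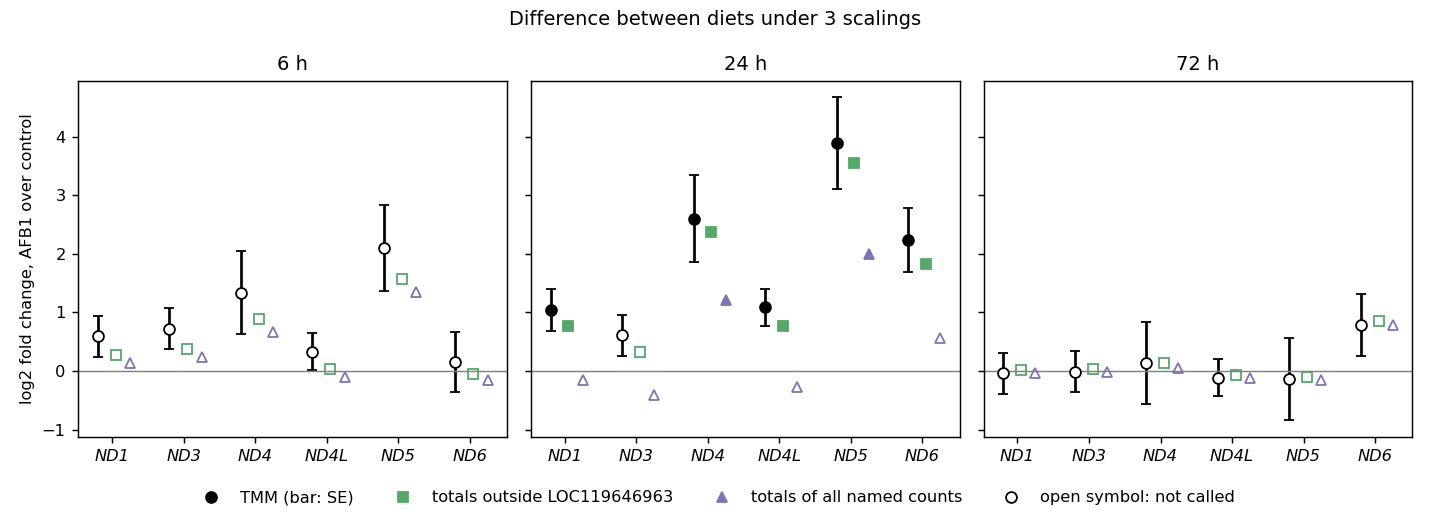
Log2 fold changes of AFB1 over control for the 6 complex I genes with counts at 6, 24 and 72 h, under library scaling by TMM, by counts outside LOC119646963 and by all named counts, with filled symbols for an adjusted p under 0.05 in edgeR and bars of 1 SE for TMM. At 24 h ND4 and ND5 stay above 0 under all 3 scalings, while ND1, ND3 and ND4L lie below 0 with all named counts (-0.16, -0.41 and -0.28). The median over all genes moved by -1.65 on that scaling.

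After 72 h no member was called in edgeR, DESeq2 or limma voom, and none had an unadjusted p under 0.05 in edgeR, where 9.28% of all genes were called. The 6 log2 fold changes lay between -0.14 and 0.79, with a median of -0.023 against 0.063 over all genes. ND5 had 2574, 1646, 1399 and 1363 CPM outside LOC119646963 in AFB1 72 h libraries and 1677, 2301, 1895 and 1639 CPM in controls. Its log2 fold change was -0.14 (SE 0.70, edgeR adjusted p = 0.969). ND4 had 8491.5, 2887, 3058 and 4340.5 CPM in AFB1 72 h libraries, against 5375, 3379.5, 2996 and 5348 CPM in controls. For both genes AFB1 replicate 1 was the highest of the AFB1 libraries, and the remaining 3 were within or below the control range. ND6 had the largest difference, 0.79 (SE 0.53, edgeR adjusted p = 0.496), from 55, 53, 8 and 20 counts in AFB1 libraries and 11, 39, 33 and 5 counts in controls. With the near-identical control 72 h libraries summed to 2 or to 1, edgeR still called no member, and none had an unadjusted p under 0.05, while 458 of 10434 and 258 of 10593 genes were called, against 943 of 10165 with 4 libraries.

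Averaged over the 3 times, ND5 (1.95, edgeR adjusted p = 0.00151), ND4 (1.36, adjusted p = 0.0146), ND6 (1.06, adjusted p = 0.0115) and ND1 (0.53, adjusted p = 0.0434) rose on AFB1 feed, although with all named counts ND5 alone was called. With TMM 4 of 6 members were called, where 18.2% of all genes were called higher and 37.4% in either direction. ND3 (0.44, adjusted p = 0.0864) and ND4L (0.44, adjusted p = 0.0627) did not pass, and ND1, ND3 and ND4L were at -0.020, -0.063 and -0.17 with all named counts. On that scaling ND4 was at 0.65 (edgeR adjusted p = 0.0738) and ND6 at 0.40 (adjusted p = 0.334), and 3315 of 10165 genes were called. Without AFB1 24 h replicates 3 and 4 edgeR called ND5 and ND3 (0.57, adjusted p = 0.0277). ND4 (0.96, adjusted p = 0.0789), ND6 (0.83, adjusted p = 0.0512) and ND1 (0.46, adjusted p = 0.0887) were then not called. ND1 lost its call without any 1 of 17 of the 24 libraries, though its log2 fold change was then still 0.43 to 0.54. It was also not called with the control 72 h libraries summed to 2 (0.53, edgeR adjusted p = 0.0988). After the 4 libraries of control 72 h were summed to 1, edgeR called no member (3 were under 0.05 before adjustment) and 1173 of 10593 genes. The log2 fold changes were then 1.92 for ND5, 1.40 for ND4, 1.01 for ND6 and 0.53 for ND1, close to those with 4 libraries.

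The effect of AFB1 was then compared between the times. In the edgeR test of that difference none of the 6 genes was called, 3 had an unadjusted p under 0.05, and 5.47% of all genes were called. ND5 came nearest (adjusted p = 0.0518), and DESeq2 called it. Limma voom called no member. ND5 was also called without control 24 h replicate 4, AFB1 6 h replicate 3 or 4, AFB1 24 h replicate 1 or 2 or AFB1 72 h replicate 1, and without control 24 h replicate 4 ND1 and ND4 were called with it, which gives 3 members. Without AFB1 24 h replicate 1 ND6 was called with ND5. The fold changes at 6, 24 and 72 h are therefore given side by side, and a difference of response between times was not shown at the threshold.

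Within the AFB1 diet, ND1, ND4, ND5 and ND6 fell between 24 and 72 h, though with all named counts only ND4 and ND5 passed. With TMM 4 of 6 members were called, where 15.7% of all genes were called lower and 37.2% in either direction. ND5 fell by 3.90 on the log2 scale (SE 0.79, edgeR adjusted p = 0.00188) and ND4 by 2.70 (SE 0.75, adjusted p = 0.00921), and the libraries of 72 h were all below those of 24 h on both scales of CPM. That order was shared by 8.75% of all genes outside LOC119646963 and by 1.24% with all named counts. ND6 fell by 1.68 (adjusted p = 0.0198) and ND1 by 1.13 (adjusted p = 0.0177), though ND1 was at 0.10 with all named counts. With all named counts the median over all genes itself moved by 1.63, and 5365 of 10165 genes were called in either direction. On that scaling ND6 was at -0.21 (edgeR adjusted p = 0.753). It was also not called with totals outside LOC119646963 (-1.39, edgeR adjusted p = 0.0549) or in limma voom (adjusted p = 0.0724). With only the groups compared, neither ND1 nor ND6 was called. ND1 and ND6 were not called without AFB1 24 h replicate 3, and without replicates 3 and 4 of that group edgeR called no member (2 were under 0.05 before adjustment), with ND5 at -1.49 (adjusted p = 0.097). ND4L (-0.72, adjusted p = 0.0754) and ND3 (-0.21, adjusted p = 0.655) did not pass. Both were above 0 with all named counts, though below the median over all genes on that scaling. This comparison shares the AFB1 24 h libraries with the comparison of the diets at 24 h.

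Between 6 and 24 h on AFB1 feed no member was called in edgeR or limma voom, 3 had an unadjusted p under 0.05 in edgeR, and 4.04% of all genes were called. ND5 had a log2 fold change of 2.38 (adjusted p = 0.0573), and -0.043 without AFB1 24 h replicates 3 and 4. DESeq2 called ND4 and ND5 there. In edgeR both were called without control 24 h replicate 4 or AFB1 6 h replicate 3, and ND5 and ND6 without AFB1 24 h replicate 1. Between 6 and 72 h on AFB1 feed none was called in edgeR, DESeq2 or limma voom, with ND5 alone under an unadjusted p of 0.05 in edgeR and 11.7% of all genes called.

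In the control larvae no member was called for any pair of times in edgeR, DESeq2 or limma voom, and none had an unadjusted p under 0.05 in edgeR. The share of all genes called was 5.01% for 24 h against 6 h, 11.4% for 72 h against 24 h and 0% for 72 h against 6 h. From 6 through 24 to 72 h, ND1 averaged 9346 ± 562, 9156 ± 3294 and 8492 ± 209 CPM outside LOC119646963 in controls, and ND5 averaged 1399 ± 193, 1732 ± 1006 and 1878 ± 304 CPM (SD, n = 4 each). The wide spread at 24 h comes from control replicate 4, which had 14012 CPM of ND1 and 3239 CPM of ND5. In the same 3 steps ND5 averaged 4149 ± 3079, 20385 ± 18472 and 1745 ± 566 CPM in AFB1 larvae (SD, n = 4 each).

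Summed over the members, complex I RNA made up 4.08% ± 1.18 of the counts outside LOC119646963 in AFB1 larvae and 2.91% ± 0.503 in controls at 6 h (SD, n = 4 each). At 24 h the sum was 7.51% ± 2.91 in AFB1 larvae and 2.59% ± 0.845 in controls, and at 72 h it was 2.74% ± 0.789 in AFB1 larvae and 2.70% ± 0.236 in controls. The single values at 24 h were 4.18%, 5.99%, 10.3% and 9.55% in AFB1 replicates 1 to 4, against 2.22%, 1.94%, 2.38% and 3.83% in control replicates 1 to 4, with no overlap. Of all named counts the sum was 3.03%, 3.43%, 2.66% and 1.80% in AFB1 24 h libraries and 2.06%, 1.79%, 2.19% and 2.42% in controls, where AFB1 replicate 4 fell among the controls. No p is given for the sum, as its members were chosen together.

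The proportions of the members to one another do not depend on how a library is scaled. ND1 and ND3 together made up 50.7% to 73.2% of complex I counts in every library except AFB1 24 h replicates 3 and 4, where they made up 22.0% and 20.7%. In the 3 like control 24 h libraries, replicates 1 to 3, ND3 took 36.1%, 35.1% and 37.2%, ND4 12.2%, 11.8% and 11.4%, and ND5 5.40%, 6.08% and 5.53% of complex I counts. In AFB1 24 h replicates 3 and 4, ND3 took 5.26% and 5.80%, ND4 40.1% and 34.7%, and ND5 34.8% and 38.6%. AFB1 24 h replicates 1 and 2 lay between these, with 25.8% and 27.4% for ND3, 26.8% and 26.1% for ND4 and 9.24% and 8.23% for ND5. Control 24 h replicate 4, at 17.7% for ND3, 31.1% for ND4 and 8.46% for ND5, was closer to these values than to the other 3 controls.

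**Figure D3:**
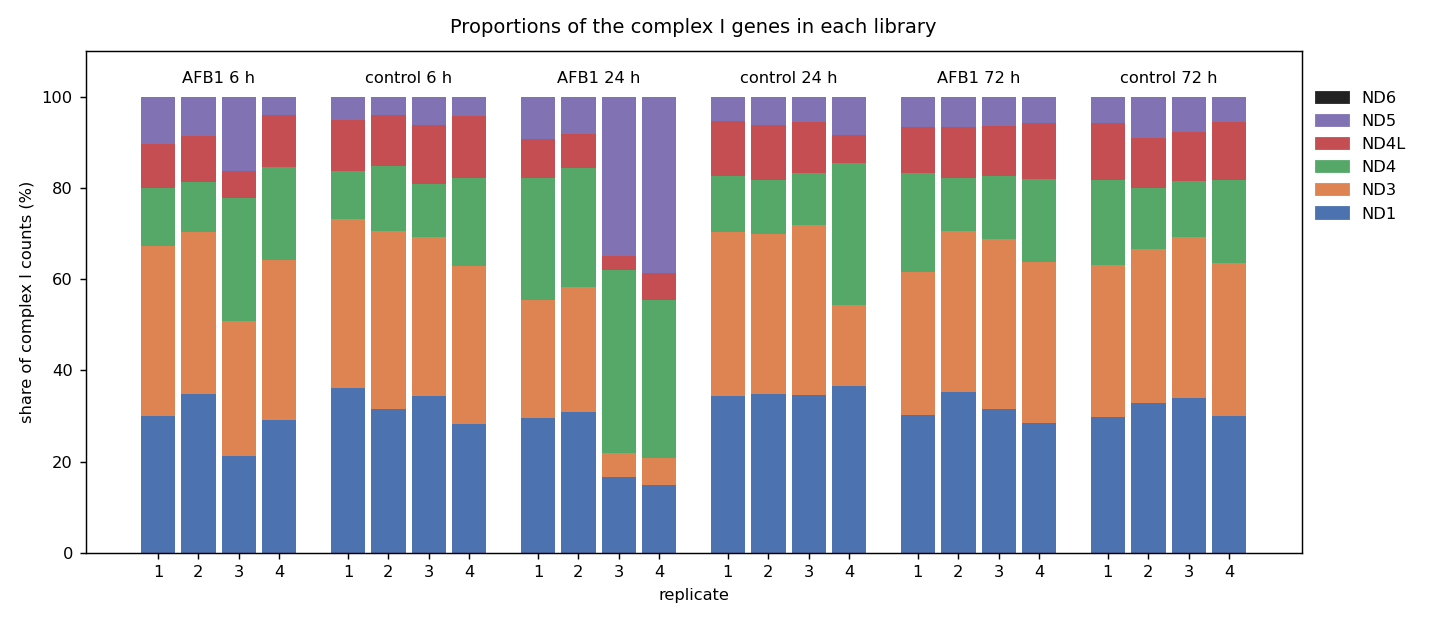
Share of each of the 6 complex I genes with counts in the summed complex I counts of each library, in percent, by group with AFB1 left of control at each time. ND4 and ND5 together make up 74.9% and 73.3% in AFB1 24 h replicates 3 and 4, against 16.9% to 39.6% in the control 24 h libraries.

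Each share was compared between the diets at each time with a two-sided exact permutation test over all 70 ways to divide the 8 libraries, which can give no p under 0.0286. Of 18 such tests, 1 fell below 0.05 unadjusted: ND1 took 23.0% ± 8.36 of complex I counts in AFB1 24 h libraries and 35.1% ± 1.01 in controls (SD, n = 4 each, exact permutation p = 0.0286, lower in 4 of 4 AFB1 libraries). Shares within a library are tied to one another, so a lower share is not a lower level. ND1 averaged 15569 CPM outside LOC119646963 in these AFB1 libraries and 9156 CPM in controls, but 6665 and 7442 CPM of all named counts. ND5 took 22.7% ± 16.2 in AFB1 24 h libraries and 6.37% ± 1.43 in controls (exact permutation p = 0.0571), and ND4 took 31.9% ± 6.70 in AFB1 libraries and 16.6% ± 9.66 in controls (exact permutation p = 0.0857). ND3 took 16.1% ± 12.2 in AFB1 24 h libraries and 31.5% ± 9.24 in controls (exact permutation p = 0.114). ND4L took 6.28% ± 2.35 in AFB1 libraries and 10.4% ± 2.87 in controls (exact permutation p = 0.0857). ND3, ND4, ND4L and ND5 thus all missed 0.05, which with n = 4 does not show that the diets were alike. The lowest p was 0.0857 at 6 h, for ND4L by the exact permutation test, with 9.23% ± 2.28 in AFB1 libraries and 12.1% ± 1.34 in controls. At 72 h it was 0.229 by the same exact permutation test, for ND6.

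Ratios between members were also set side by side. ND4 had 3.14 to 12.9 counts per count of ND4L in AFB1 24 h libraries, against 0.967 to 5.11 in controls, and 1.06 to 2.14 in AFB1 72 h libraries against 1.12 to 1.49 in controls. ND5 had 0.313, 0.267, 2.08 and 2.59 counts per count of ND1 in AFB1 24 h replicates 1 to 4, against 0.157 to 0.231 in controls. The groups did not overlap, but AFB1 replicates 1 and 2 were close to control replicate 4 (0.231). No share over other pairs of genes was formed for this order. ND3 had 0.315 to 0.890 counts per count of ND1 in AFB1 24 h libraries and 0.485 to 1.07 in controls. The reference table used here gives no strand, and whether the counting used strand is not given, so RNA of the opposite strand cannot be told apart.

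**Figure D4:**
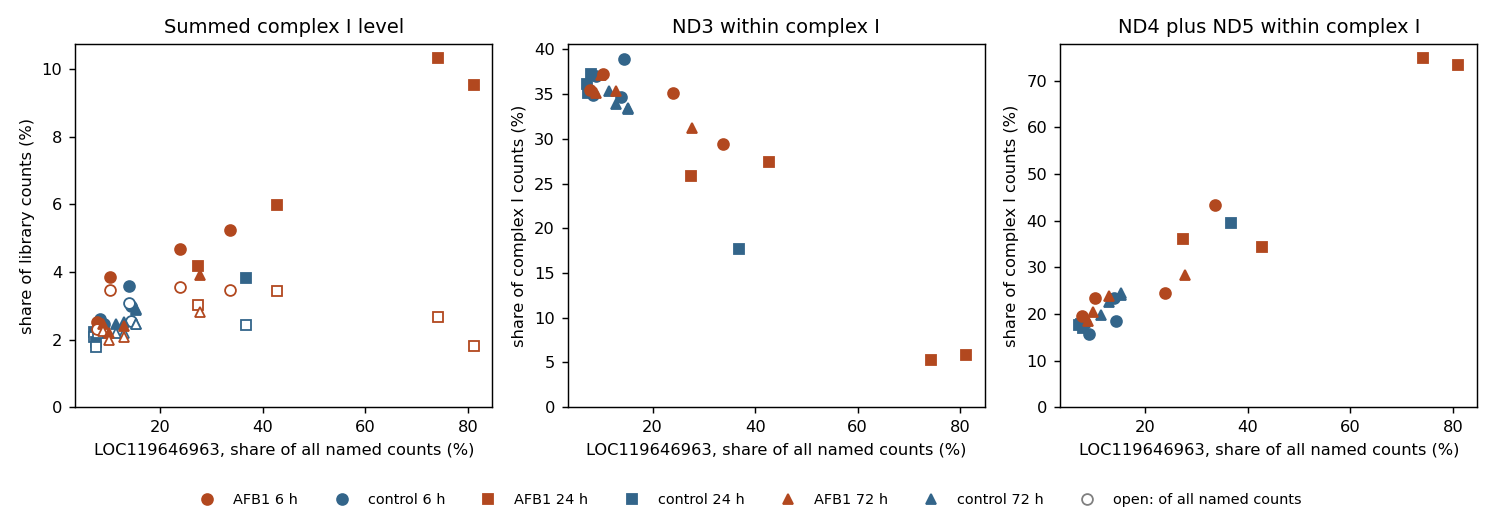
Summed complex I genes as a percent of library counts (filled: outside LOC119646963, open: all named counts), ND3 as a percent of complex I counts and ND4 plus ND5 as a percent of complex I counts, each against the share of LOC119646963 in all named counts, in percent, for the 24 libraries. The libraries at the right, AFB1 24 h replicates 3 and 4 (74.2% and 81.1%), have the lowest ND3 shares (5.26% and 5.80%) and the highest shares of ND4 plus ND5 (74.9% and 73.3%).

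The level of LOC119646963 was also set beside the levels of the members. Across the 24 libraries its log2 CPM had a Pearson r of 0.975 with ND4, 0.927 with ND5, 0.913 with ND1 and 0.807 with ND4L, but 0.62 with ND6 and 0.27 with ND3. After removal of the group means r was 0.954 with ND4, 0.846 with ND5, 0.840 with ND1, 0.719 with ND4L, 0.365 with ND6 and 0.248 with ND3. These points share libraries, depth and scaling, and the r values are a description without a test. Among the members, ND1 and ND4 were closest (r = 0.951), followed by ND4 and ND5 (r = 0.908), whereas ND3 and ND5 had an r of 0.226. After removal of the group means the r of ND4 and ND5 was 0.777 and that of ND3 and ND5 was 0.0059.

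Outside complex I, the gene whose pattern over the 24 libraries was most like ND4 was CYTB (Pearson r = 0.986), followed by LOC119647563 (0.978). The genes most like ND5 were LOC119658062 (0.972) and LOC119657593 (0.971), and those most like ND1 were LOC119661044 (0.965) and LOC119653635 (0.962). ND6 was nearest to LOC119661005 (0.871) and LOC119653191 (0.853), and ND4L to LOC119650574 (0.84) and LOC119658680 (0.84). ND3 had the loosest match, with LOC119655254 (0.787) and LOC119661362 (0.784). Some of these places depend on the measure: LOC119658062 was far down the order for ND5 by Spearman correlation (rho = 0.814), and LOC119661362 came 37th for ND3 with totals outside LOC119646963 (r = 0.622). By Spearman correlation LOC119650574 had rank 51.5 for ND4L (rho = 0.823). For ND1, LOC119661044 had rank 26 (rho = 0.909) and LOC119653635 rank 20 (rho = 0.915) by that measure. The reference table gives no product for these LOC numbers.

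The other mitochondrial protein genes, CYTB, COX1, COX2 and COX3 of complexes III and IV and ATP6 and ATP8 of the ATP synthase, give the surroundings of these values. At 24 h 3 of 6 were called higher, against 12.2% of all genes, and none lower in edgeR. The number called was 1 with all named counts, where 5182 of 10165 genes were called, and 0 without AFB1 24 h replicates 3 and 4. At 6 h none was called (2 with an unadjusted p under 0.05), and at 72 h none was called (0 with an unadjusted p under 0.05). Averaged over the times 4 of 6 were called higher, against 18.2% of all genes, and 2 were called with all named counts, 1 without AFB1 24 h replicates 3 and 4 and 0 once the 4 control libraries of 72 h were added into 1. Between 24 and 72 h on AFB1 feed 3 of 6 were called lower, against 15.7% of all genes, and 0 without AFB1 24 h replicates 3 and 4. Complex I genes made up 61.0% ± 9.61 of the counts of all 13 mitochondrial protein genes in AFB1 larvae and 51.0% ± 2.17 in controls at 6 h (SD, n = 4 each). At 24 h they made up 63.2% ± 2.59 in AFB1 larvae and 53.4% ± 4.48 in controls, with 60.3% to 65.9% in AFB1 libraries and 49.0% to 59.6% in controls, so the diets did not overlap. At 72 h the shares were 49.5% ± 3.03 in AFB1 larvae and 50.4% ± 1.71 in controls.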

How the data were processed

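Raw counts of reads were deposited as a single table of genes by libraries. STAR is credited in the submitters' processing notes, and which counter, strand setting, build and versions were used is not given in the sources used here. Differential expression in the study used DESeq2, per the series' design text. Reads were 150 bp pairs, per the labels' protocols, which also mention 5 pools per group. Of 15197 lines, 1 was empty and 9 named no gene (0.0206% to 0.0431% of counts) and were set aside before scaling and testing.

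The test was that of edgeR 4.0.16 (R 4.3.3) on 10165 genes kept by filterByExpr and scaled by TMM, in 1 model of all 24 libraries with a coefficient per group. It left 18 residual degrees of freedom, and the common biological coefficient of variation was 0.513. The robust quasi-likelihood test was two-sided with Benjamini-Hochberg adjustment over all genes, and called genes are those with an adjusted p under 0.05. The 24 h medians over all genes moved by -1.65 (log2, AFB1 over control) with all named counts, -0.49 with counts outside LOC119646963 and -0.15 with TMM. At 6 h they were -0.48, -0.34 and -0.049 in that order. Alternatives were DESeq2 1.42.0, limma 3.58.1 (voom), other scalings, no filter, a replicate block, only the groups compared, summed control 72 h libraries and left-out libraries. The fit was also run on counts simulated independently for each gene, which checks the code and not the results given here.

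All 7 genes are named, with the 2 genes of highest Pearson r for each tested member (log2 CPM, prior count 2). Members and lists were chosen with earlier results of these data known. Only names and gene order were used from the reference table, which gives no product names, so no list of nuclear complex I genes was formed. Replicate numbers did not pair the samples. Counting limits cover counting error only.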

Additional observations from a re-analysis of the deposited data

Results flagged for a closer look

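A library was picked out where its gap to the nearest of the other 3 of its group, divided by the group's range, was above Dixon's 95% critical value. Of 120 sets of 4 values tested, 11 were picked out, and chance gives about 1 in 20.

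Control 24 h replicate 4 gave 7 of them. In it ND4 had 11915 CPM outside LOC119646963, against 2284.5 to 2718 CPM in the other 3, and 7528 CPM of all named counts, against 2115 to 2524.5 CPM. ND5 had 3239 CPM outside LOC119646963, against 1178 to 1313 CPM, and 2046 CPM of all named counts, against 1090.3 to 1209 CPM. Of complex I counts, ND4 took 31.1% there (11.4% to 12.2% in the others), ND3 17.7% (35.1% to 37.2%) and ND4L 6.10% (11.2% to 12.2%).

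AFB1 72 h replicate 1 was high, with 12225 CPM of ND3 outside LOC119646963 (8139 to 8653 CPM in the others) and 39099 CPM of summed complex I genes on the same scale (21920.0 to 24622 CPM). AFB1 6 h replicate 2 was low, with 23238 CPM of summed complex I genes of all named counts, against 34655 to 35518 CPM. In AFB1 24 h replicate 1 ND6 had 2.20 CPM outside LOC119646963, against 10.6 to 11.7 CPM.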

How the results depend on the processing

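Scaling to all named counts reversed ND4L (-0.10) and ND6 (-0.15) at 6 h, ND1, ND3 and ND4L at 24 h (-0.16, -0.41 and -0.28) and averaged (-0.020, -0.063 and -0.17), and ND1 (0.10), ND3 (0.67) and ND4L (0.51) between 24 and 72 h on AFB1 feed. With all named counts the median over all genes itself moved by -0.48 at 6 h and -1.65 at 24 h. Between 24 and 72 h on AFB1 feed it moved by 1.63. Totals outside LOC119646963 put ND6 at -0.055 at 6 h, where the median moved by -0.34. Called members with all named counts were 2 at 24 h, 1 averaged and 2 between 24 and 72 h on AFB1 feed. Over all 10165 genes tested, 5182, 3315 and 5365 were called in that order, against 3181, 3805 and 3783 with TMM.

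Without AFB1 24 h replicates 3 and 4 the called members were 1 at 6 h, 0 at 24 h, 2 averaged and 0 between 24 and 72 h on AFB1 feed, and ND5 between 6 and 24 h on AFB1 feed was reversed (-0.043). With control 24 h replicate 4 also left out they were 1 at 6 h and, on AFB1 feed, 2 for 72 against 24 h and 1 for 72 against 6 h, with ND5 again at -0.043. Only the groups compared gave 2 at 24 h, 2 between 24 and 72 h on AFB1 feed and 1 between 6 and 72 h in controls. DESeq2 gave 1 at 6 h, 2 between 6 and 24 h on AFB1 feed and 1 for the difference between times, where DESeq2's size factors in edgeR and totals outside LOC119646963 also gave 1. Over all genes, those size factors called 594 of 10165 and those totals 403 for that difference, against 556 with TMM. The control 72 h libraries summed to 1 gave 0 averaged. Leaving out the libraries nearer to another group, chosen after seeing the data like the control 72 h libraries summed to 2, gave 2 between 6 and 24 h on AFB1 feed and 2 for the difference between times. The log2 ratio of summed levels, 0.32 at 6 h and 0.37 at 24 h with all named counts, was 0.85 at 6 h with TMM and 1.54 (outside LOC119646963) and 1.86 (TMM) at 24 h. As log2 ratios to the geometric mean, the 72 h shares of ND3 (-0.084) and ND4 (-0.056) were reversed. Calls over all genes also moved with the setting, so the counts of members are not read as particular to them. The cause of these changes was not tested.

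Without single libraries the called members ranged from 0 to 1 at 6 h, 3 to 5 at 24 h, 3 to 6 averaged, 0 to 2 between 6 and 24 h and 2 to 5 between 24 and 72 h on AFB1 feed and 0 to 3 for the difference between times. Calls over all genes in those refits are not given here, so the ranges are not read as particular to the members. ND6 at 6 h ranged from -0.0022 to 0.42 and ND3 between 24 and 72 h on AFB1 feed from -0.44 to 0.10. Differences of shares ranged, in points, from -0.000629 to 0.00362 for ND6 at 24 h, and at 72 h from -1.47 to 0.819 for ND1, -0.119 to 1.84 for ND3 and -1.01 to 2.32 for ND4. Permutation tests of 3 against 4 libraries cannot pass and say nothing of stability.

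Same-numbered libraries had correlations of -0.224 to 0.218 (3 of 12 over 0.1, and 3 of 12 best with their own number), so the numbers do not pair the samples. The replicate block gave 0 called members at 6 h, 5 at 24 h, 0 at 72 h, 3 averaged and 4 between 24 and 72 h on AFB1 feed. Averaged ND1 lost its call (0.54, adjusted p = 0.0584), the only such change under the block. Depth limits ND6 and, in AFB1 24 h replicates 3 and 4, the 1711314 to 2097793 counts left for all other genes.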
